A study of Mus musculus with 4 samples.

Results

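The genes described here are 7 homeobox transcription factor genes used as markers of sensory and motor neurons: Pou4f1, Pou4f2, Isl1, Isl2, Tlx3, Lhx3 and Lhx4. They were chosen by name, without use of their values, and each has 1 entry among the 46983 genes listed for every library. The libraries are 4 pools of 3 larynxes each from mouse embryos at E10.5 (32 to 35 somites), kept on a Swiss Webster background; the study's methods describe the dissected tissue as vocal fold. The 2 mutant pools carry the Shh null allele Shhtm1amc, and the 2 WT pools are their comparison. The series' design text and the study give the mutants as Shh-/-, whereas the sample labels write the genotype of these pools as Shh+/-. The name Shh-/- is used below, "mutant pools" means these pools, and the libraries are named Shh-/- pool 1, Shh-/- pool 2, WT pool 4 and WT pool 6 after their labels. The comparison asks which genes differ in the early larynx when the secreted signal Sonic hedgehog is absent.

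Homeobox genes encode transcription factors that bind DNA through the homeodomain, and combinations of them set the identity of a neuron. In cranial ganglia, sensory neurons arise from epidermal placodes and from the neural crest, and Pou4f1, Isl1 and Tlx3 are switched on as these neurons differentiate. In the hindbrain and spinal cord, motor neurons use Isl1, Isl2, Lhx3 and Lhx4, whose proteins assemble with the adaptor Ldb1. Isl1 is also known outside neurons, in cardiac progenitors of the pharyngeal mesoderm and in foregut tissue, so its level alone does not name a neuron.

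The 7 genes belong to 3 classes of homeobox gene, and the stretch that encodes the DNA-reading helix shows the difference. The lines below give 30 bases of each coding sequence, from the GENCODE M21 transcripts, with the codon of residue 50 of the homeodomain in capitals. This codon is TGC in the POU class genes and CAA or CAG in the others.
Pou4f1: cgggtgtggtttTGCaaccagagacagaag
Pou4f2: cgcgtctggttcTGCaaccagaggcagaaa
Isl1: cgagtgtggtttCAAaacaagcggtgcaag
Isl2: cgcgtgtggtttCAGaacaagcgttgcaag
Lhx3: caggtgtggttcCAGaatcgccgggctaag
Lhx4: caggtttggtttCAGaacagaagagccaag
Tlx3: aagacctggttcCAAaatcggaggaccaag

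Because relatives this close can share reads, the transcripts were searched for identical stretches. Over the whole homeobox of 180 bases, Isl1 and Isl2 were identical at 83.3% of bases, Pou4f1 and Pou4f2 at 83.3%, and Lhx3 and Lhx4 at 79.4%. The longest run that Isl1 and Isl2 had in common was 23 bases, inside the homeobox of both. Pou4f1 and Pou4f2 shared a longer run, of 71 bases, in the coding sequence upstream of the homeobox. In Pou4f1 it covers bases 1137 to 1207 of the transcript, and the homeobox starts at base 1335. Both runs are shown because they are the places where reads of a pair are hardest to tell apart.
Isl1 and Isl2: cggactgtgctcaacgagaagca
Pou4f1 and Pou4f2: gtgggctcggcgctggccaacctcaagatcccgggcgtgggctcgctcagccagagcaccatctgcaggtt
None of the 7 genes had a window of 75 bases, the read length inferred here, that was identical to a window of another GENCODE gene (0 of 2260 windows in Isl2 and 0 of 4598 in Pou4f1, for example).

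Levels are given as TPM, which scale each gene for transcript length and each library to the same total, so that levels can be compared between genes. The aligned reads numbered 18300000 in Shh-/- pool 1, the shallowest library, and 37900000 to 41700000 in the other 3. Every mitochondrially encoded gene (37 of 37) has the value 0 throughout, and a value of 0 is therefore described only as listed at 0. As a check of the labels, the 5 hedgehog target genes Ptch1, Gli1, Hhip, Foxf1 and Foxf2 summed to 17.4 and 33.7 TPM in the mutant pools, against 203.3 and 187.8 TPM in the WT pools. Shh itself was at 10.4 and 10.8 TPM in the mutant pools, against 23.7 and 42.1 TPM in the WT pools (limma adjusted p = 0.0895), and gene totals do not show which part of the transcript these reads cover.

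Differences were tested with limma on log2(TPM + 1) in 16972 genes, those that averaged 1 TPM or more over the libraries, with Benjamini-Hochberg adjustment and a threshold of 0.05. The log2 fold changes below are Shh-/- minus WT on that scale, which understates the change of genes near 0. Of the 7 genes, 3 entered the test (Isl1, Isl2 and Tlx3), 3 were too low to enter it (Pou4f1, Pou4f2 and Lhx4), and Lhx3 was listed at 0 throughout. The minimum is on the mean of all libraries, so a gene under 1 TPM in one genotype can enter through the other. Tlx3, with a WT mean of 0.452 TPM, entered through its Shh-/- values. Isl2 and Tlx3 passed the threshold, both higher in Shh-/-. Over all tested genes, 0.725% passed, 0.56% as higher and 0.165% as lower, and the median log2 fold change was 0.08. Both Shh-/- pools lay above both WT pools for 4 of the 7 genes and below them for 2, and among all genes above 0 in some library this was so for 29.2% and 19.5%. These counts include Lhx4 as above and Pou4f2 as below, which reached at most 0.0827 and 0.126 TPM in any pool. Among tested genes alone, the Shh-/- pools lay above for 38% and below for 22.7%.

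**Figure D1:**
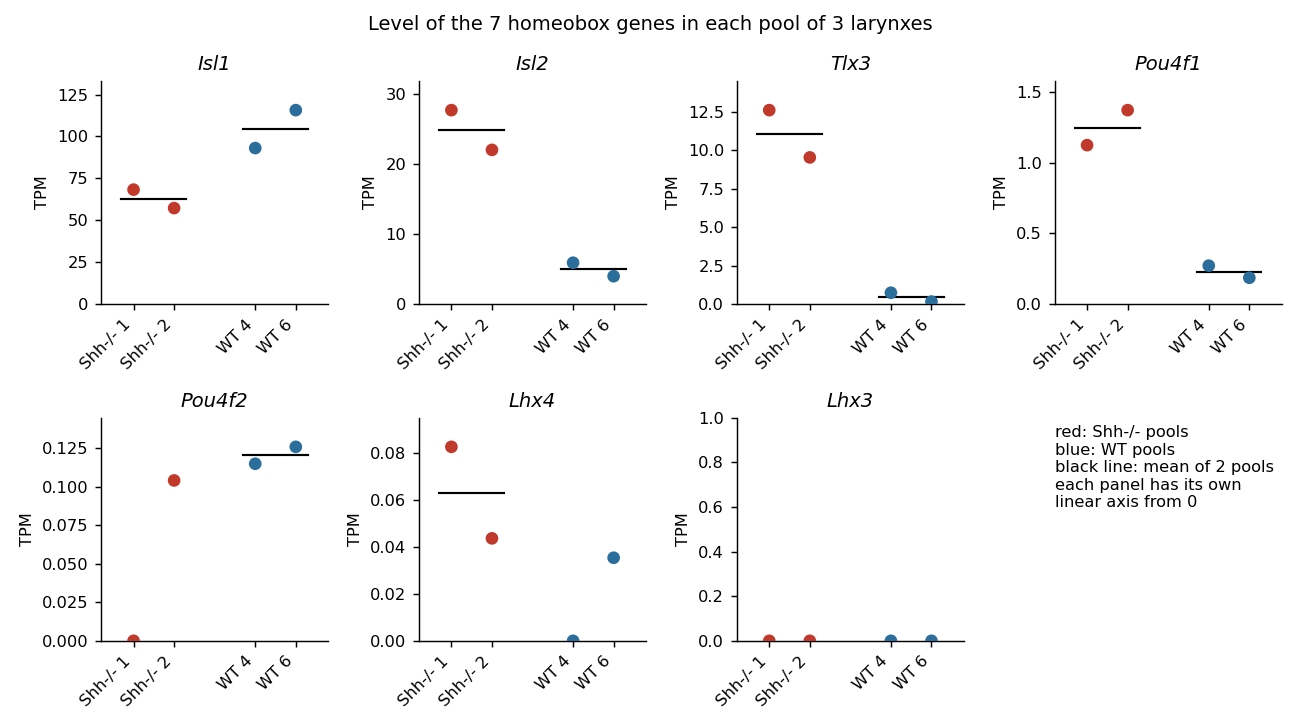
TPM of each of the 7 genes (vertical axis, linear and starting at 0, with its own range in each panel) in the 2 Shh-/- pools (red) and the 2 WT pools (blue), with black lines at the mean of each group where no pool is listed at 0. Isl2, Tlx3 and Pou4f1 sit higher in both Shh-/- pools, Isl1 sits lower, and Pou4f2, Lhx4 and Lhx3 stay under 0.13 TPM in every pool.

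The plot of levels by pool shows the order of the genes within each genotype. In the Shh-/- pools Isl1 was the most abundant, followed by Isl2, Tlx3 and Pou4f1, and the pools of neighbours in this order did not overlap. In the WT pools Isl1 and Isl2 again came first, but the pools of Tlx3 (0.165 to 0.740 TPM) and Pou4f1 (0.186 to 0.272 TPM) overlapped. Pou4f2 and Lhx4 overlapped in the Shh-/- pools and not in the WT pools, where Pou4f2 was the higher.

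Isl1 is a LIM homeobox gene of differentiating sensory and motor neurons and of cardiac progenitors. It lies on the minus strand of mm10 (chr13:116298281-116309689, ENSMUSG00000042258.13). Its level was 68.3 TPM in Shh-/- pool 1 and 57.3 TPM in Shh-/- pool 2, against 93.1 TPM in WT pool 4 and 115.7 TPM in WT pool 6. Each Shh-/- value was under each WT value. The means were 62.8 ± 7.78 and 104.4 ± 16.0 TPM (SD, n = 2 pools each), a ratio of WT to Shh-/- of 1.66. The log2 fold change of -0.72 (SE 0.16) did not pass the threshold (limma adjusted p = 0.104). In bulk tissue, fewer cells that express a gene and less RNA in each such cell cannot be told apart, here and for every gene below.

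Isl2 is the close relative of Isl1 that accompanies it in motor and sensory neurons, and its values differed in the opposite direction. It lies on the plus strand (chr9:55538672-55546180, ENSMUSG00000032318.12). Its level was 27.7 TPM in Shh-/- pool 1 and 22.0 TPM in Shh-/- pool 2, against 5.90 TPM in WT pool 4 and 3.98 TPM in WT pool 6. Every Shh-/- value exceeded every WT value, and the gap between the genotypes was wider than that between pools of a genotype. The means were 24.8 ± 4.01 and 4.94 ± 1.36 TPM (SD, n = 2 pools each), 5.02-fold higher in Shh-/-. The log2 fold change was 2.13 (SE 0.23, limma adjusted p = 0.0463). The direction held when any pool was left out, but the call did not: the adjusted p was 0.170 without Shh-/- pool 1, 0.106 without Shh-/- pool 2, 0.132 without WT pool 4 and 0.142 without WT pool 6, with log2 fold changes from 1.89 to 2.37.

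The ratio of the Isl paralogs was taken within each pool. Isl1 exceeded Isl2 by 2.47-fold and 2.60-fold in the Shh-/- pools and by 15.8-fold and 29.1-fold in the WT pools. On the log2(TPM + 1) scale the difference between the paralogs was 1.31 ± 0.05 in Shh-/- and 4.16 ± 0.55 in WT (SD, n = 2 pools each). The difference of -2.85 between the genotypes was -3.08 when the TPM ratio was taken without the added 1. The genotypes did not overlap, and the exact permutation p of 0.333 (two-sided) is the smallest that 2 pools against 2 allow.

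Tlx3 encodes a homeobox factor of glutamatergic sensory neurons in the dorsal spinal cord, the hindbrain and cranial ganglia. It lies on the minus strand (chr11:33200752-33203589, ENSMUSG00000040610.7) and has 1 annotated transcript, of 1533 bases. Its level was 12.6 TPM in Shh-/- pool 1 and 9.54 TPM in Shh-/- pool 2, against 0.740 TPM in WT pool 4 and 0.165 TPM in WT pool 6. At 75 bases a read, its coverage corresponds to 169.6 and 303.5 reads in the mutant pools, against 21.5 and 5 reads in the WT pools. The Shh-/- pools were both far above the WT pools, and the WT values rest on few reads. The means were 11.1 ± 2.17 and 0.452 ± 0.407 TPM (SD, n = 2 pools each), 24.5-fold higher in Shh-/-. That ratio rested on the WT pools, since it was 15.0-fold without WT pool 6 and 67.2-fold without WT pool 4, and 21.1-fold and 27.9-fold without Shh-/- pool 1 and pool 2. The log2 fold change was 3.07 (SE 0.28, limma adjusted p = 0.0412). It stayed between 2.78 and 3.36 when any pool was left out, but the adjusted p was then 0.144 without Shh-/- pool 1, 0.0934 without Shh-/- pool 2, 0.132 without WT pool 4 and 0.117 without WT pool 6.

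Pou4f1, also called Brn3a, is the POU class factor of most somatosensory neurons of the trigeminal and dorsal root ganglia. It lies on the minus strand (chr14:104461676-104467999, ENSMUSG00000048349.9). Its level was 1.12 TPM in Shh-/- pool 1 and 1.37 TPM in Shh-/- pool 2, against 0.272 TPM in WT pool 4 and 0.186 TPM in WT pool 6. The genotypes did not overlap, and the Shh-/- mean was 5.45-fold the WT mean, but all 4 values were low. Its mean over the libraries was 0.738 TPM, under the minimum of 1. In a fit without that minimum the log2 fold change was 0.87 (SE 0.14, limma adjusted p = 0.166), and of the 28524 genes in that fit 0 passed the threshold, with 5011 at an unadjusted p under 0.05.

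Pou4f2, or Brn3b, is the related factor known for retinal ganglion cells and a subset of sensory neurons. It lies on the minus strand (chr8:78433010-78436645, ENSMUSG00000031688.4). It is listed at 0 in Shh-/- pool 1 and was at 0.104 TPM in Shh-/- pool 2, 0.115 TPM in WT pool 4 and 0.126 TPM in WT pool 6. The 3 values above 0 correspond to 6.9, 7 and 8 reads, and 3 reads in Shh-/- pool 1 would have been 0.107 TPM. At this depth no difference was detectable (log2 fold change -0.09, SE 0.08, limma adjusted p = 0.576 in the fit without the minimum).

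Lhx3 and Lhx4 are LIM homeobox genes of motor neurons, ventral interneurons and the pituitary. Lhx3 (chr2:26200212-26208289, minus strand, ENSMUSG00000026934.15) is listed at 0 in all 4 libraries. Lhx4 (chr1:155698031-155751684, minus strand, ENSMUSG00000026468.14) was at 0.0827 TPM in Shh-/- pool 1 and 0.0437 TPM in Shh-/- pool 2, is listed at 0 in WT pool 4, and was at 0.0354 TPM in WT pool 6. Its log2 fold change without the minimum was 0.06 (SE 0.06, limma adjusted p = 0.623) and turned to -0.07 with median centring and -0.10 with a correction for GC content and length, so no direction is given. The LIM class motor neuron genes thus split by level, with Isl1 and Isl2 well above 1 TPM and Lhx3 and Lhx4 under 0.1 TPM in every pool.

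Promoters are shown for the 4 genes above 1 TPM in some pool, as the 250 bases before the RefSeq start site in build GRCm38.p6, which has the coordinates of mm10. Capitals mark matches, on either strand, to 5 motifs that were searched: the E-boxes CAGATG and CAGCTG, the homeodomain core TAATTA, the GLI motif GACCACCCA and the promoter element CCAAT. The positions are chr14:104468000-104468249 for Pou4f1, chr13:116309689-116309938 for Isl1 and chr11:33203589-33203838 for Tlx3, all on the minus strand, and chr9:55540899-55541148 for Isl2, on the plus strand.
Pou4f1: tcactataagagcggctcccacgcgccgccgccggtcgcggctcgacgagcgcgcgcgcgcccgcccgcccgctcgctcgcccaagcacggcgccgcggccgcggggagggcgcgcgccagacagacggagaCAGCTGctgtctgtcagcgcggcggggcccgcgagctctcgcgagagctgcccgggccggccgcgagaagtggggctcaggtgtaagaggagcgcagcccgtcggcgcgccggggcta
Isl1: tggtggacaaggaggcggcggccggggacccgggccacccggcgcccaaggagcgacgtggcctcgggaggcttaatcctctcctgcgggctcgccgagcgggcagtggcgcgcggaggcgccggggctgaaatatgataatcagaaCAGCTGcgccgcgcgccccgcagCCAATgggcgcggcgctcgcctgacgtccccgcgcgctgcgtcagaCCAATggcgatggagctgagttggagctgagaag
Isl2: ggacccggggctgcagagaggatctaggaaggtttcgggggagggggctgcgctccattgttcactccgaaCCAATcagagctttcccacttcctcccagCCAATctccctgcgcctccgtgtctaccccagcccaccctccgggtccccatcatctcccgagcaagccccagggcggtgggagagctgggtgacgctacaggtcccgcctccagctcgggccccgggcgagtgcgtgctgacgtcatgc
Tlx3: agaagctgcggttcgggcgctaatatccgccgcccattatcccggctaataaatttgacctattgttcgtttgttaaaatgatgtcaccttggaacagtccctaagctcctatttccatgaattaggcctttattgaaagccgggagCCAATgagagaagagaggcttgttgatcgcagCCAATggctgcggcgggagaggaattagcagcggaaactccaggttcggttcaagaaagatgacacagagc
Isl1, Isl2 and Tlx3 each held 2 copies of CCAAT, which occurs at least once in 33.9% of 32851 promoters of this length. The share of promoters with 2 copies was not counted. Pou4f1 and Isl1 each held CAGCTG, found in 13.0% of promoters. None of the 4 held CAGATG (14.4% of promoters), TAATTA (4.84%) or GACCACCCA (0.225%) in these windows, and the motifs searched do not overlap in them. The Tlx3 window had 48.8% G and C, against 66.8% in Isl2, 71.2% in Isl1 and 78.0% in Pou4f1. Isl1, which had lower values in Shh-/-, and Isl2 and Tlx3, which rose, all held CCAAT.

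Genes on the opposite strand lie close to some of these genes, and whether the authors' assembly used strand is not given in the sources used here, though the library kit marks it. Isl2 is overlapped by Gm17226, which is listed at 0 in Shh-/- pool 1 and was at 0.432 TPM in Shh-/- pool 2, against 0.369 and 0.204 TPM in the WT pools, far below Isl2. Gm12116 starts 466 bases from Tlx3 and was at 0.906 and 1.14 TPM in the mutant pools, against 0.833 and 0.704 TPM in the WT pools. Gm38193 starts 154 bases from Isl1, within the promoter window shown, and was at 1.12 and 0.986 TPM in the mutant pools, against 1.73 and 2.22 TPM in the WT pools (a log2 fold change of -0.53, SE 0.22, limma adjusted p = 0.223). These 3 genes were named for their position, and the text names them after their values were seen.

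Neuronal genes as a group also differed between the genotypes, so each gene was set against them. The summed TPM of 12 genes that most neurons express (Tubb3, Stmn2, Elavl3, Elavl4, Dcx, Gap43, Nefl, Nefm, Ina, Map2, Snap25 and Syt1) was 825.4 and 921.5 in the mutant pools, against 225.5 and 170.0 in the WT pools, 4.42-fold higher in Shh-/-. Of these 12 genes, 6 passed the threshold as higher and 0 as lower, and the median log2 fold change was 1.93. All 12 log2 fold changes were positive, but Map2 and Syt1 overlapped between the genotypes (0.31 and 0.03). Abundant genes weigh most in the sum, such as Nefm (221.8 and 246.4 against 51.3 and 24.8 TPM). The percentages below divide a gene's TPM by that sum in the same pool and describe the RNA of the pool as a whole, since Isl1 need not lie in neurons.

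Isl2 was 3.35% and 2.39% of the sum in the mutant pools, against 2.62% and 2.34% in the WT pools. The genotypes overlapped, and the log2 difference of 0.19 was smaller than the SD between pools of 0.26 (exact permutation p = 0.667, two-sided). It turned to -0.05 without Shh-/- pool 1 and was 0.11 to 0.44 when another pool was left out. Pou4f1 was 0.136% and 0.149% of the sum in the mutant pools, against 0.120% and 0.110% in the WT pools, a log2 difference of 0.31. With Tubb3 and Stmn2 alone as the reference, the log2 difference was -0.26 for Isl2 and -0.14 for Pou4f1, so neither gene had a direction that held under both references.

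Tlx3 was 1.53% and 1.03% of the sum in the mutant pools, against 0.328% and 0.0969% in the WT pools, 6.03-fold higher in Shh-/- by the means. The log2 difference was 2.82 against a pooled SD of 0.92, and it was 2.37 with Tubb3 and Stmn2 as the reference. Without WT pool 6 it was 1.94 and without WT pool 4 it was 3.70, so its size rested on which WT pool was used. The pools did not overlap, at the smallest exact permutation p of 0.333 (two-sided).

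Isl1 was 8.27% and 6.22% of the sum in the mutant pools, against 41.3% and 68.1% in the WT pools, 7.55-fold higher in WT. The log2 difference was -2.89 against a pooled SD of 0.42 (exact permutation p = 0.333, two-sided, the smallest possible), and -3.34 with the shorter reference. Thus, Isl1 had the lower percentage in both Shh-/- pools, Tlx3 the higher one, and Isl2 overlapped. The sum itself was 4.42-fold higher in Shh-/-, so a gene with the same TPM in every pool also has a lower percentage there. How many of all genes were lower on this measure was not counted.

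**Figure D2:**
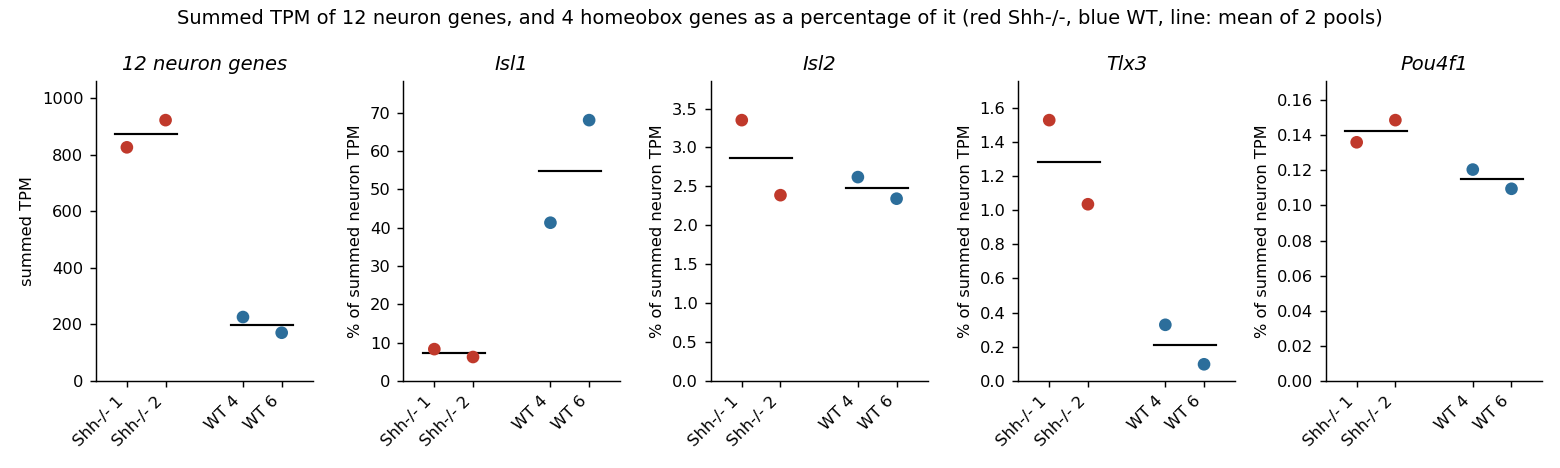
Left, summed TPM of the 12 neuronal genes in each pool; right, Isl1, Isl2, Tlx3 and Pou4f1 as a percentage of that sum (linear axes from 0, red for Shh-/- pools, blue for WT pools, black lines for the mean of 2 pools). The Isl2 pools overlap, Tlx3 is at 1.03% or more in Shh-/- and 0.328% or less in WT, and Isl1 is at 8.27% or less in Shh-/- and 41.3% or more in WT.

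Genes of other cell types were examined beside these results. Genes of pharyngeal mesoderm, where Isl1 is also known, summed to 217.7 and 217.4 TPM in the mutant pools, against 233.6 and 201.7 TPM in the WT pools. Of these 9 genes 0 passed the threshold, and the median log2 fold change was 0.19. The median was -0.21 with a correction for GC content and length and -0.32 without Shh-/- pool 2. Without Hand2, which autonomic neurons also express, the sum was 135.3 and 162.2 TPM in the mutant pools, against 192.8 and 166.3 TPM in the WT pools. Both mutant pools were then below both WT pools, the closest at 162.2 against 166.3 TPM. Hand2 itself had higher values in Shh-/-, so leaving it out could only move the comparison downwards, and it was left out after the data were seen. The most abundant genes of the list beside Hand2 were Tbx1 (45.5 and 48.9 against 41.2 and 32.6 TPM) and Tcf21 (37.7 and 70.2 against 90.3 and 88.4 TPM). The sum without Tcf21 was not taken. The pools also did not overlap for the cardiac factors Nkx2-5 (5.97 and 4.73 against 18.5 and 13.6 TPM) and Tbx5 (1.22 and 4.71 against 19.4 and 12.6 TPM), both with lower values in Shh-/-. Nkx2-5 passed as lower with median centring (limma adjusted p = 0.0496) and with the correction for GC content and length (limma adjusted p = 0.0414). Fgf8, a secreted signal of the pharynx (17.7 and 10.4 against 5.24 and 1.16 TPM), and Mef2c, a factor of heart and skeletal muscle (19.5 and 9.37 against 8.23 and 7.05 TPM), had higher values in Shh-/- without overlap. Counting all 9 genes, 4 were higher without overlap, 4 were lower without overlap and 1 overlapped. The overlapping gene was Gata4 (4.46 and 9.95 against 5.56 and 6.03 TPM). Among all tested genes, 38% were higher and 22.7% were lower without overlap.

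The epithelial genes Epcam, Cdh1, Foxa1, Foxa2, Nkx2-1, Sox2, Krt8 and Krt18, which mark the foregut lining of the larynx, summed to 496.1 and 433.3 TPM in the mutant pools, against 452.5 and 467.4 TPM in the WT pools. The cell adhesion gene Epcam and the keratins Krt8 and Krt18 were the most abundant of them, each with higher values in Shh-/-. The median log2 fold change of the 8 was -0.19, with 4 higher, 4 lower and 0 past the threshold. Of the transcription factors in this list, Foxa2, Nkx2-1 and Foxa1 had lower values in Shh-/- without overlap. Sox2 overlapped between the genotypes (52.2 and 37.9 against 39.5 and 47.3 TPM). Foxa2 was at 5.34 and 9.12 against 29.2 and 39.8 TPM (limma adjusted p = 0.0602). Nkx2-1 was at 6.16 and 3.61 against 15.9 and 17.9 TPM (limma adjusted p = 0.0715), and Foxa1 at 14.5 and 15.6 against 25.6 and 37.8 TPM (limma adjusted p = 0.102). The neural crest and glia genes Sox10, Foxd3, Erbb3 and Fabp7 summed to 94.2 and 73.2 TPM against 48.7 and 38.4 TPM, with 0 of the 4 past the threshold. Fabp7, a fatty acid-binding protein of glia, passed as higher with FPKM in place of TPM (limma adjusted p = 0.0475) and with the correction for GC content and length (limma adjusted p = 0.0464). Heart muscle genes, of which the myosins Myh7 and Myh6 rose among 6 tested and Actc1, Myl7 and Myl4 were the most abundant, summed to 148.8 and 220.4 TPM against 51.1 and 60.2 TPM, with Nppa listed at 0 in all pools. The part of these cell types in the values of the 7 genes was not tested.

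Progenitor genes of the neural tube were also read. The 9 genes tried summed to 3.94 and 3.85 TPM in the mutant pools, against 1.19 and 1.24 TPM in the WT pools. Dbx1 and Dbx2 are listed at 0 in all pools, and Sox1, Olig1 and Olig2 were at or under 0.0968 TPM in each. Nkx2-2, a ventral progenitor factor, was at 0.591 and 0.427 against 0.0954 and 0.0702 TPM. Nkx6-2, another homeobox factor of progenitors, was at 0.179 and 0.202 TPM in the mutant pools, is listed at 0 in WT pool 4 and was at 0.0862 TPM in WT pool 6, so both genes were higher in Shh-/- without overlap, at low levels. Pax6 and Sox3, which placodes also express, were the only 2 to enter the test, and neither passed (limma adjusted p = 0.123 and 0.166). The part of progenitor cells in the values of the 7 genes was not tested.

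Other members of the same homeobox families were compared with the 7 genes. Of 11 relatives 6 entered the test, all with higher values in Shh-/- under each scaling of TPM tried, and 2 rose, Tlx1 and Tlx2. With FPKM 4 entered the test, again all higher. Tlx1, Lhx2 and Lmx1a averaged 0.570, 0.154 and 0.932 TPM in the WT pools and entered through their Shh-/- values. The minimum thus favoured higher values among the relatives tested. Without it, 10 relatives were fitted, all with higher values, and 0 passed. Tlx1, which acts in cranial sensory neurons and in spleen formation, was at 9.97 and 9.90 TPM in the mutant pools, against 0.803 and 0.337 TPM in the WT pools (a log2 fold change of 2.82, SE 0.23, limma adjusted p = 0.0323). Tlx2, which is known from the enteric nervous system and other crest derivatives, was at 15.2 and 19.0 TPM in the mutant pools, against 3.41 and 2.51 TPM in the WT pools (2.19, SE 0.21, limma adjusted p = 0.0422). The 3 Tlx genes were therefore all past the threshold, and in each the genotypes did not overlap. None of the 3, nor any other gene of the lists used here, hedgehog targets included, stayed past it when any pool was left out.

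The same ratio was taken within the Tlx family. Tlx3 was 1.27 and 0.963 times Tlx1 in the mutant pools, against 0.922 and 0.488 times Tlx1 in the WT pools. It was 0.832 and 0.502 times Tlx2 in the mutant pools, against 0.217 and 0.0657 times Tlx2 in the WT pools. On the log2(TPM + 1) scale the shift was 0.26 for Tlx3 against Tlx1 and 0.88 for Tlx3 against Tlx2, and without the added 1 it was 0.72 and 2.44. As a percentage of the neuronal sum, Tlx1 was at 1.21 and 1.07 against 0.356 and 0.198, and Tlx2 at 1.84 and 2.06 against 1.51 and 1.47. With Tubb3 and Stmn2 alone as the reference, Tlx1 was again higher without overlap (3.65 and 3.23 against 1.44 and 0.831). Tlx2 then overlapped (5.54 and 6.19 against 6.11 and 6.17), so its direction did not hold under both references.

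The LIM relatives Lhx8, Lhx6 and Lhx2, which pattern the forebrain and the pharyngeal arches, had higher values in Shh-/- and did not pass the threshold. Lhx8 was at 12.6 and 10.7 TPM against 4.62 and 1.96 TPM (limma adjusted p = 0.101), and Lhx6 at 6.88 and 7.31 TPM against 1.94 and 2.11 TPM (limma adjusted p = 0.0592). Lhx6 passed as higher with eBayes without trend (limma adjusted p = 0.0464). Lhx2 was at 3.75 and 1.47 TPM against 0.185 and 0.123 TPM (limma adjusted p = 0.114). Pou4f3, the third member of the Pou4f family, is listed at 0 in all pools. By TPM, Isl1 was the only one of the 9 tested genes among members and relatives whose value was lower in Shh-/-. As a percentage of the neuronal sum Isl1 was not the only one that was lower. That sum was 4.42-fold higher in Shh-/-, so a gene with higher TPM there can still have a lower percentage. The lower percentages below are of this kind and are not decreases in TPM. Lmx1a, a LIM factor of the dorsal midline, was at 0.155 and 0.179 against 0.454 and 0.493 (a log2 difference of -1.51, pooled SD 0.12). Lhx6 was at 0.833 and 0.793 against 0.860 and 1.24 (a log2 difference of -0.35, pooled SD 0.27), lower without overlap as well. Lhx2 was higher (0.455 and 0.160 against 0.0820 and 0.0725), and Lhx8 overlapped. With Tubb3 and Stmn2 alone as the reference, Lmx1a, Lhx6 and Lhx2 kept their directions. Lhx8 was then lower without overlap (4.59 and 3.49 against 8.28 and 4.82).

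**Figure D3:**
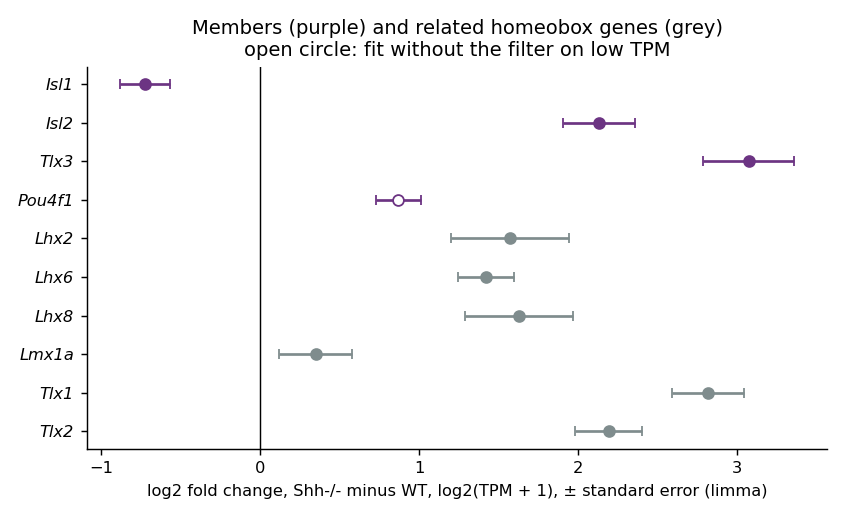
Log2 fold change, Shh-/- minus WT on log2(TPM + 1), with its standard error from limma, for 4 of the 7 genes (purple) and 6 related homeobox genes (grey); Pou4f1, the open circle, comes from the fit without the minimum of 1 TPM. Isl1 is at -0.72, left of 0, and the other points lie to the right, up to 3.07 for Tlx3.

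The partners of the LIM proteins were present in all pools. Ldb1, the adaptor that joins LIM homeodomain proteins, was at 231.2 and 206.2 TPM in the mutant pools, against 159.5 and 130.0 TPM in the WT pools. Ssbp3, which stabilises Ldb1, was at 267.2 and 203.7 TPM against 130.9 and 87.8 TPM, and Lmo4, a LIM-only competitor, at 209.6 and 130.8 TPM against 113.5 and 104.2 TPM. Of the 9 cofactor genes 0 passed the threshold and the median log2 fold change was 0.60, so none of them rose or fell by this test. Rlim, a ubiquitin ligase for Ldb1, was the 1 gene of the 9 with a negative log2 fold change (-0.34).

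Upstream of these genes, proneural and placode factors start sensory neuron formation. Of 7 such genes 1 rose, the placode factor Eya2, and 0 fell. The median log2 fold change of the 7 was 1.73. Eya2 was at 26.1 and 21.4 TPM in the mutant pools, against 7.47 and 6.70 TPM in the WT pools (limma adjusted p = 0.0449). Neurog2, the proneural factor of epibranchial placodes, was at 31.4 and 28.7 TPM against 3.45 and 0.0453 TPM and did not pass (limma adjusted p = 0.0828). Six4, a homeobox factor of placodes and muscle, was at 19.1 and 18.0 TPM against 15.6 and 16.4 TPM (limma adjusted p = 0.377). Eya1, another placode factor, was at 42.5 and 32.5 TPM against 17.4 and 16.2 TPM and did not pass either (limma adjusted p = 0.0709).

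Downstream, genes that mark sensory neuron subtypes were read beside Tlx3 and Pou4f1. Of 12 such genes 6 entered the test, and 3 rose and 0 fell. With quantile normalization 0 of them passed, and with median centring 1 did. P2rx3, an ATP receptor of visceral sensory neurons, was at 11.5 and 15.4 TPM in the mutant pools, against 3.00 and 2.22 TPM in the WT pools (limma adjusted p = 0.0491). Ntrk2, the BDNF receptor, was at 9.73 and 12.1 TPM against 2.101 and 2.35 TPM (limma adjusted p = 0.0448), and Prph, a neurofilament of peripheral neurons, at 15.4 and 20.6 TPM against 4.58 and 4.20 TPM (limma adjusted p = 0.0466). Ret and Ntrk3 overlapped between the genotypes, with log2 fold changes of -0.02 and 0.09. Prdm12, a factor of developing pain-sensing neurons, was too low for the test, at 1.38 and 1.66 TPM in the mutant pools, and is listed at 0 in both WT pools.

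Motor neuron genes are the other set that Isl1, Isl2, Lhx3 and Lhx4 serve. Of 7 listed genes 5 entered the test, 2 with higher and 3 with lower values in Shh-/-, and the 1 that passed was Phox2a. Phox2a, a factor of visceral motor, autonomic and epibranchial sensory neurons, was at 22.3 and 23.2 TPM in the mutant pools, against 4.23 and 1.99 TPM in the WT pools (limma adjusted p = 0.0493). Mnx1, which marks somatic motor neurons and gut tissue, was at 0.449 and 0.912 TPM against 1.87 and 2.17 TPM (limma adjusted p = 0.145). Nkx6-1, a motor neuron progenitor and foregut gene, was at 0.0726 and 1.85 TPM against 15.8 and 5.82 TPM (limma adjusted p = 0.118). Chat, the enzyme that makes acetylcholine, was under 0.5 TPM in every pool, and Slc18a3, its vesicle transporter, was at 5.18 and 4.51 TPM against 1.001 and 0.731 TPM (limma adjusted p = 0.0595). With eBayes without trend, Slc18a3 was the 1 gene of the motor list that passed, as higher (limma adjusted p = 0.0464). In the autonomic list, which shares Phox2a, 1 of 7 genes rose. By log2 fold change, 6 of the 7 had higher values in Shh-/- and 1 had lower values. Gata3, a factor of sympathetic neurons, overlapped between the genotypes (23.2 and 14.1 against 16.0 and 14.0 TPM), and Hand2, which sympathetic neurons and the heart share, was at 82.4 and 55.2 TPM against 40.8 and 35.4 TPM (limma adjusted p = 0.131). The 1 gene with lower values was Th, the first enzyme of catecholamine synthesis, which did not pass (1.11 and 5.10 against 5.17 and 9.32 TPM, limma adjusted p = 0.275).

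**Figure D4:**
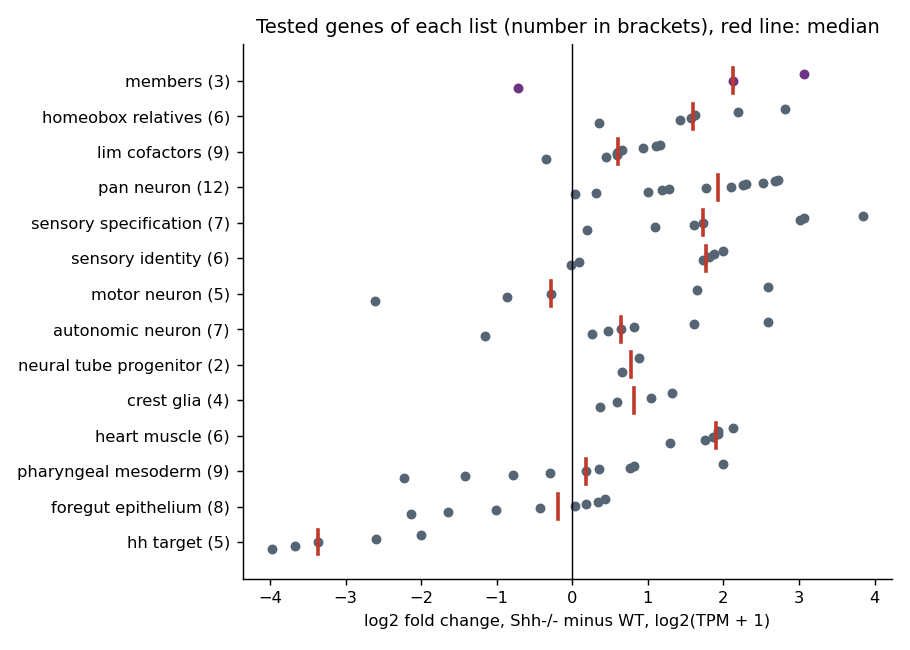
Log2 fold change, Shh-/- minus WT on log2(TPM + 1), of every tested gene of each list (points; number of genes in brackets), with the list's median in red. The sensory specification list has a median of 1.73 and the neuronal list 1.93, the motor neuron list spreads to both sides of 0 with a median of -0.29, and the hedgehog targets lie to the left with a median of -3.36.

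The genes whose pattern over the 4 libraries was most like that of each tested member were found by Euclidean distance between centred log2(TPM + 1) profiles, among 16971 genes. For Isl2 they were Elavl3, a neuronal RNA-binding protein (distance 0.15), Hpca, a neuronal calcium sensor (0.15), and Draxin, an axon guidance factor (0.20). For Tlx3 they were the proneural factor Neurod4 (0.25), the homeobox gene Alx4 (0.26) and Crym, a thyroid hormone-binding protein (0.28). For Isl1 they were Mir99ahg, a microRNA host gene (0.04), Larp4, an RNA-binding protein (0.05), and the nuclear import receptor Ipo7 (0.06). Elavl3 and Neurod4 are in the neuronal and sensory specification lists. None of the 3 genes nearest to Isl1 is in the neuronal or motor lists. For the neuronal list this was fixed beforehand, because all 12 of its genes had positive log2 fold changes and could not lie near Isl1. The motor list has only 5 tested genes among the 16971, so finding none of them says little. With 4 libraries this describes likeness only.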

How the data were processed

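Poly(A)-selected, stranded RNA-seq was made from 4 pools of 3 larynxes (200 to 310 ng total RNA, RIN 7.7 to 9.0) and sequenced single-end. The authors aligned reads to mm10 with HISAT2 2.1.0 and assembled them with StringTie 1.3.6, whose versions come from the submitters' processing notes. The deposited tables give for each gene the coverage, as unnormalized signal, the FPKM and the TPM, and no read counts. TPM rows were summed per gene ID. Of 46983 IDs, 46488 matched GENCODE M21.

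Aligned bases were obtained from the ratio of coverage to FPKM. A read length of 75 nt gave whole reads (within 0.02 of a whole number) for 32.0 to 36.8% of low genes, those with 1 transcript, coverage under 1 and between 0.5 and 20 read equivalents, against at most 20.7% at the other lengths tried, so read equivalents are approximate. TPM keeps no depth, and precision is given by the spread between pools. That the pools hold separate embryos is taken from the labels. The limma p-values set a difference against a variance between pools that is moderated over all genes. The permutation p-values reflect only how the 4 pools can be regrouped. Both refer to these pools alone.

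Expression was compared with limma 3.58.1 in R 4.3.3 (lmFit, eBayes with trend) on log2(TPM + 1), for genes that averaged 1 TPM or more, without covariates. Genes under the minimum were read from a fit without it. Ratios were tested by exact permutation (scipy 1.17.1), which cannot give a two-sided p below 0.33. Scripts were tested on simulated data. All 7 genes, of each of 13 other lists the 3 most abundant tested genes and any past the threshold, the 3 nearest genes of each tested member, and Shh with the hedgehog targets were named by rule. Other genes of the lists were chosen after their values were seen: Chat, Dbx1, Dbx2, Fgf8, Foxa1, Foxa2, Gata4, Lhx2, Lhx6, Lmx1a, Map2, Mef2c, Mnx1, Nkx2-1, Nkx2-2, Nkx2-5, Nkx6-2, Nppa, Ntrk3, Olig1, Olig2, Pou4f3, Prdm12, Rlim, Sox1, Sox2, Syt1, Tbx5 and Th. The members and the lists were chosen with earlier results of these data known. Some genes of the lists are not reported here and were left out of the counts, medians and sums of their lists.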

Additional observations from a re-analysis of the deposited data

How the results depend on the processing

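The number of genes past the threshold was 123. It was 69 with a pseudocount of 0.1, 0 without the minimum TPM (with 5011 at an unadjusted p under 0.05) and 858 at an adjusted p under 0.10, and it ranged from 0 to 16 when each pool was left out in turn. Of the 7 genes, 2 passed, against 0 with a pseudocount of 0.1, 0 without the minimum TPM, 1 (Tlx3) with eBayes without trend, and 0 when any pool was left out. The causes were not tested, beyond the larger number of genes or smaller number of pools in those fits. With a correction for GC content and length 75 genes passed as higher and 36 as lower, against 95 and 28. Isl1 had a log2 fold change from -0.88 to -0.57 and an adjusted p from 0.0893 to 0.371 over 15 settings, Isl2 from 1.77 to 2.37 (0.0329 to 0.170), Tlx3 from 2.39 to 4.55 (0.0281 to 0.146), and Pou4f1 from 0.53 to 2.04 (0.129 to 0.331, 13 settings), with no change of direction. Lhx4 reversed, to -0.065 with median centring and -0.10 with the correction for GC content and length. Relative to Tubb3 and Stmn2 in place of 12 neuronal genes, the log2 difference was -3.34 for Isl1, -0.26 for Isl2 and -0.14 for Pou4f1. Leaving out each pool for these percentages and for TPM ratios, the paralog ratios without the added 1 and the pharyngeal sum without Hand2 were added after the data were seen. No paired analysis was possible because the genotypes share no replicate numbers. Depth limits Pou4f2, Lhx3 and Lhx4, and the WT values of Tlx3.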
